A study of Homo sapiens with 7 samples.

Results

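RRM1, RRM2, RRM2B, DCTD, DUT, TYMS, TK1, DCK and SAMHD1 make, salvage, cleanse and degrade the deoxynucleoside triphosphates (dNTPs) from which DNA is built. These 9 genes were taken by name from the 16527 rows of the authors' deposited table, and all 9 were measured. The table compares the RNA of AXL knockout and parental PC9 cells, an epithelial line from a human lung adenocarcinoma with mutant EGFR. AXL encodes a cell surface receptor with tyrosine kinase activity. The knockout group held 4 libraries, from 2 cultures that each grew from 1 sorted knockout cell, with 2 libraries per clone. The parental group held 3 libraries of unmodified PC9 cells. All cells grew in RPMI medium, and the labels name no drug for either group. The series title links AXL with drug resistance and with replication that makes errors, and the comparison asks how RNA levels differ once AXL is lost.

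Ribonucleotide reductase removes an oxygen from ribonucleoside diphosphates and so makes every deoxynucleotide from its ribonucleotide. Thymidylate needs a further route, in which dCMP or dUTP is turned into dUMP and TYMS methylates dUMP to dTMP. TK1 and DCK recover deoxynucleosides from outside the cell or from degraded DNA, and SAMHD1 hydrolyses dNTPs back to nucleosides. Many of these genes are known to be transcribed most strongly around S phase, under E2F transcription factors, and dividing tumour cells depend on them.

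AXL itself had an implied level of 18.2 normalized counts in knockout cells and 1417 in parental cells, by the authors' deposited table. Its log2 fold change was -6.28 ± 0.18 (SE). The mean counts of all genes summed to 12209504, and the library size factors recovered from the lowest rows lay between 0.938 and 1.06. All 8 epithelial markers were measured, 5 higher and 1 lower, with KRT8 at 50455 in knockout and 24512 in parental cells. The lower one was CDH1, with a log2 fold change of -0.33 ± 0.06 (SE), and EPCAM and KRT7 did not pass the test. CDH1, EPCAM and KRT7 were named after their values had been seen. The 24 ribosomal protein genes had a median log2 fold change of 0.04, with 5 higher and 3 lower. Of 11 markers of leukocytes, fibroblasts and endothelium 5 had a row, 2 higher and 1 lower. Their levels summed to 2185 in knockout and 936 in parental cells. Most of this was PECAM1, an endothelial adhesion molecule, at 1777 in knockout and 351 in parental cells. The fibroblast marker COL1A1 was the lower one, with a log2 fold change of -0.59 ± 0.17 (SE). CDH5, an endothelial marker named after its value had been seen, had one of -0.57 ± 0.25 and did not pass the test. The leukocyte markers PTPRC, CD3E and LYZ were not analysed here. The part of these markers in the results below was not tested.

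RefSeq promoter sequences (GRCh38.p14) were matched for 8 of the 9 genes. Of these, 4 are shown, as the 250 bases before the most downstream RefSeq start. DUT and TYMS are shown because theirs were the windows with an E2F match, and RRM1 and RRM2 because they encode both subunits of the S phase reductase. Capitals mark matches to the E2F motif TTTNNCGC or to the CCAAT box, each on either strand.
DUT: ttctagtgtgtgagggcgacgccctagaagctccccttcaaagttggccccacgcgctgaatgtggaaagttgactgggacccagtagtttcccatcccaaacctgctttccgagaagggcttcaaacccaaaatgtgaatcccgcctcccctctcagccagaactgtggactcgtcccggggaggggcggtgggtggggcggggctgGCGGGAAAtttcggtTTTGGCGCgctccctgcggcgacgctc
TYMS: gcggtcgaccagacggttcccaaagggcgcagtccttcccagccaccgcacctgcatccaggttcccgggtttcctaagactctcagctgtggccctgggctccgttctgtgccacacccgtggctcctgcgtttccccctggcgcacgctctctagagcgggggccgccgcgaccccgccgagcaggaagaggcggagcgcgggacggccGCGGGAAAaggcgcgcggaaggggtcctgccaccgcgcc
RRM1: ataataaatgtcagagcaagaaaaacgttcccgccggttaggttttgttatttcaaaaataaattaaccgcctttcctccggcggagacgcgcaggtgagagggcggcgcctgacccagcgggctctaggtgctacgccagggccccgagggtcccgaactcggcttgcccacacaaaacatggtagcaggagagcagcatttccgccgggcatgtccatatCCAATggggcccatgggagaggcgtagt
RRM2: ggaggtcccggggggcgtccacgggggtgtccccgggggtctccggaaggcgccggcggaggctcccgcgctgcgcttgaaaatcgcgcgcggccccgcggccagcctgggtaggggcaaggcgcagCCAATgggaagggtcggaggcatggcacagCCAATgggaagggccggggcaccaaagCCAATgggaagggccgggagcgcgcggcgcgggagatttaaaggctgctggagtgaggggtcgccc
The windows lie at chr15:48331947-48332196 for DUT, chr18:657403-657652 for TYMS, chr11:4094435-4094684 for RRM1 and chr2:10122489-10122738 for RRM2, all on the plus strand. DUT held 2 E2F matches, whose last bases lay 35 and 20 bases before the start, and TYMS held 1, at 32 bases before it. The same motif stood in 5.92% of 35116 promoter windows of the same length. The CCAAT box occurred in 4 of the 8 genes, against 32.0% of windows, with 3 matches in RRM2, 2 each in TK1 and SAMHD1 and 1 in RRM1. The GC box GGGCGG, on either strand, occurred in 5 of the 8 genes and in 42.6% of windows. The interferon-stimulated response element, on either strand, occurred in none of the 8 genes and in 3.02% of windows. Of the 2 genes with an E2F match, DUT was higher in knockout cells and TYMS did not pass the test.

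DUT, which hydrolyses dUTP, and SAMHD1, which hydrolyses dNTPs, were higher in knockout cells. RRM1, the large reductase subunit, and DCTD, the dCMP deaminase, were lower. RRM2, RRM2B, TYMS, TK1 and DCK did not pass the test. Thus 4 of the 9 genes had an adjusted p under 0.05 in the authors' DESeq2 Wald test with Benjamini-Hochberg adjustment, 44.4%, against 38.0% of all 16522 tested genes. In each direction there were 2 genes, against 19.5% of all genes higher and 18.5% lower. Among genes with a mean count of at least 200, a limit that all 9 exceed, 51.7% were called, so the share of these genes called was near the background. The median log2 fold change of the 9 genes was 0.00. The median absolute log2 fold change was 0.05, against 0.28 over all genes and 0.19 over those with a mean of at least 200. The levels of the 9 genes summed to 8422 normalized counts in knockout and 8376 in parental cells.

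**Figure D1:**
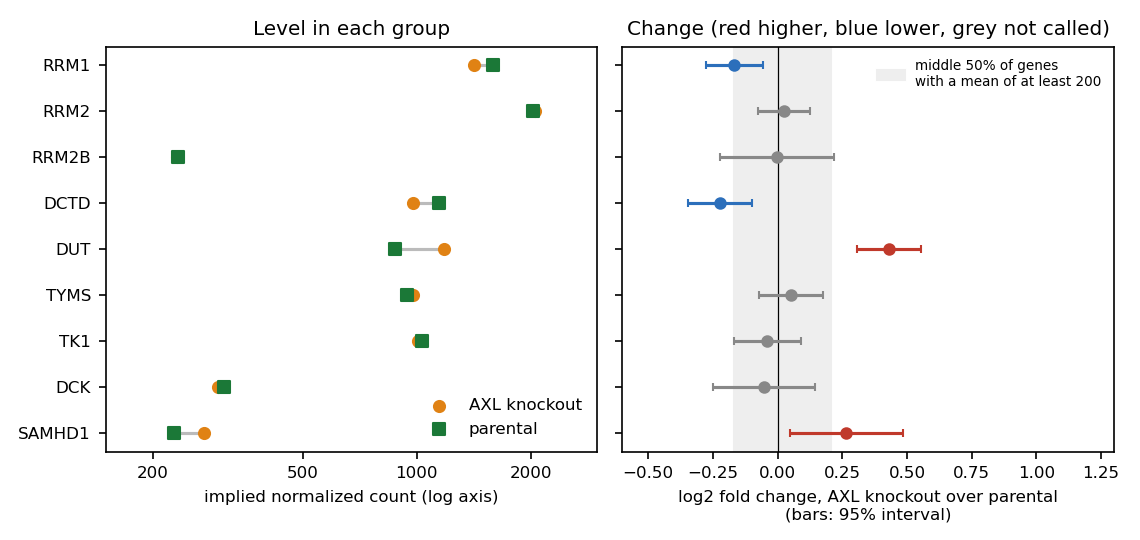
Left, implied normalized count of each of the 9 genes (log axis) in AXL knockout cells (circles) and parental cells (squares). Right, log2 fold change of knockout over parental with its 95% interval, with the middle 50% of genes of mean count at least 200 shaded. DUT, at 0.43, is the one gene whose whole interval lies outside the shaded band.

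Each level is the mean normalized count of a group, implied by the table's overall mean and fold change, and carries no spread of its own. Values per library were not analysed here, so the error is that of the fold change. RRM2 had the highest count in both groups and RRM1 the next highest. DUT had rank 3 in knockout cells and rank 6 in parental cells, while DCTD had rank 5 in knockout cells and rank 3 in parental cells. SAMHD1 and RRM2B were the lowest pair in each group, in opposite order. Counts are of tags near transcript ends and are not divided by length, so this order is one of tag counts.

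Ribonucleotide reductase joins the large catalytic subunit RRM1 with a small subunit that carries the tyrosyl radical, either RRM2, which is made for S phase and degraded in mitosis, or RRM2B, which is induced by DNA damage and also serves resting cells. RRM1 (ENSG00000167325, chr11:4094707-4138876 in GENCODE 29 on GRCh38) had 1415 normalized counts in knockout and 1589 in parental cells in the authors' deposited table. Its log2 fold change was -0.17 ± 0.06 (SE; authors' DESeq2 Wald test, adjusted p = 0.00933). This is a change of -10.9%, with a 95% interval of -17.5% to -3.92%.

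RRM2 (ENSG00000171848, chr2:10120698-10131419) had 2061 normalized counts in knockout and 2025 in parental cells, a log2 fold change of 0.03 ± 0.05 (SE; authors' DESeq2 Wald test, adjusted p = 0.750). Its interval spans -5.04% to 9.16%. RRM2B (ENSG00000048392, chr8:102204502-102239118) had 232 normalized counts in knockout and 233 in parental cells, and its interval spans -14.2% to 16.3% (authors' DESeq2 Wald test, adjusted p = 0.993). RRM1 was thus the one reductase subunit called. No difference between the subunits' changes was tested.

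The reductase is recharged by thioredoxin and glutaredoxin, and 5 of the 8 measured genes of these electron donors were called in the authors' deposited table, 2 higher and 3 lower, with a median log2 fold change of -0.07. GSR, the glutathione reductase, was higher, at 2419 normalized counts in knockout and 1601 in parental cells, a log2 fold change of 0.59 ± 0.05 (SE). The glutaredoxin GLRX was lower, at 170 in knockout and 279 in parental cells, a log2 fold change of -0.71 ± 0.12. GLRX3, a monothiol glutaredoxin of iron-sulfur cluster delivery, had a log2 fold change of -0.53 ± 0.07, and thioredoxin itself, TXN, one of -0.14 ± 0.04. The thioredoxin reductase TXNRD1, named after its value had been seen, was higher, with a log2 fold change of 0.15 ± 0.05. The called genes thus include both directions within the glutathione branch and within the thioredoxin branch. The list's share of calls was 62.5%, against 38.0% of all genes and 51.7% of those with a mean count of at least 200.

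Among 17 regulators of the reductase or of SAMHD1, 7 were higher and 2 lower in the authors' deposited table, with a median log2 fold change of 0.02. E2F2, an activator of S phase genes, had 514 normalized counts in knockout and 192 in parental cells, a log2 fold change of 1.42 ± 0.12 (SE). AHCYL1, a protein that binds the reductase and favours its dATP-inhibited state, had a log2 fold change of 0.49 ± 0.06. TFDP1, the DNA-binding partner of E2F proteins, had one of -0.37 ± 0.04, and cyclin E1, CCNE1, one of -0.60 ± 0.08. E2F1, CHEK1 and CCNF are added for their roles, after their values had been seen. E2F1 had a log2 fold change of 0.54 ± 0.09 and CHEK1, the replication checkpoint kinase that acts with ATR, one of 0.46 ± 0.07. CCNF, the ubiquitin ligase subunit that marks RRM2 for degradation, had one of -0.16 ± 0.08, which did not pass the test. The list holds both activators and inhibitors of the reductase, and its share of calls, 52.9%, is near the 51.7% of genes with a mean count of at least 200.

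DCTD, DUT and TYMS lead to thymidylate. DCTD deaminates dCMP to dUMP and is the branch point between the cytosine and thymine deoxynucleotides. DCTD (ENSG00000129187, chr4:182890060-182917936) had 979 normalized counts in knockout and 1141 in parental cells in the authors' deposited table. This gives a log2 fold change of -0.22 ± 0.06 (SE; authors' DESeq2 Wald test, adjusted p = 0.00181), a change of -14.3% with an interval of -21.3% to -6.57%.

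DUT cleaves dUTP to dUMP, which both feeds TYMS and keeps uracil out of DNA. DUT (ENSG00000128951, chr15:48331011-48343373) had 1183 normalized counts in knockout and 877 in parental cells in the authors' deposited table. Its log2 fold change was 0.43 ± 0.06 (SE; authors' DESeq2 Wald test, adjusted p = 7.8e-11), a change of 34.9% with an interval of 23.8% to 46.9%. This was the largest change among the 9 genes. Of 1298 genes with a mean count within 1.25-fold of DUT's, 81.4% had a smaller absolute change. DUT is known to give a nuclear and a mitochondrial form. GENCODE 29 lists a transcript of 164 residues that starts at base 48332103 and one of 252 residues that starts at base 48331423. They end within a few bases of each other, and tags near the transcript end do not tell them apart. The E2F matches shown above precede the most downstream of 4 RefSeq starts, at base 48332197, and the windows of the other 3 starts held none. The GENCODE transcript of 164 residues starts before both matches, so they lie downstream of that start.

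TYMS, the thymidylate synthase and the target of fluoropyrimidine drugs, had 975 normalized counts in knockout and 940 in parental cells in the authors' deposited table (ENSG00000176890, chr18:657604-673578). Its log2 fold change was 0.05 ± 0.06 (SE; authors' DESeq2 Wald test, adjusted p = 0.579), with an interval of -4.93% to 13.0%. The intervals of DUT and TYMS do not overlap, and those of DUT and DCTD lie on opposite sides of 0. The route to thymidylate thus held 1 gene higher, 1 lower and 1 not called.

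TYMS takes its methyl group from methylene-tetrahydrofolate, and of 9 measured genes of this cycle and its partners 4 were higher and 1 lower in the authors' deposited table, with a median log2 fold change of 0.22. MTHFD1, a trifunctional enzyme of one-carbon folates, had 3682 normalized counts in knockout and 3168 in parental cells, a log2 fold change of 0.22 ± 0.05 (SE). SHMT1, the cytosolic serine hydroxymethyltransferase, had 997 in knockout and 819 in parental cells, a log2 fold change of 0.28 ± 0.06. DTYMK, which phosphorylates dTMP, had 1372 in knockout and 1144 in parental cells, a log2 fold change of 0.26 ± 0.06. SLC19A1, the reduced folate carrier, had 768 in knockout and 655 in parental cells, a log2 fold change of 0.23 ± 0.07. The fallen gene was FPGS, which adds glutamates to folates, with a log2 fold change of -0.22. FPGS was named for its role, after its value had been seen. In this list 55.6% of the genes were called, near the 51.7% of genes with a mean count of at least 200 and against 38.0% of all genes.

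Among 11 measured nucleotide kinases, 3 were higher and 1 lower in the authors' deposited table, with a median log2 fold change of 0.00. Besides DTYMK, NME3 had a log2 fold change of 0.70 ± 0.14 (SE), and AK4, an adenylate kinase of the mitochondrial matrix, one of -0.31 ± 0.06. Of the 5 genes of pyrimidine ribonucleotide synthesis, 2 were lower and none higher. They were CAD, which catalyses the first steps, at -0.34 ± 0.07, and CTPS1, which makes CTP, at -0.16 ± 0.05. Of the kinases 36.4% were called and of the pyrimidine genes 40.0%, against 38.0% of all genes. Both shares were below the 51.7% of genes with a mean count of at least 200, a limit that all 5 pyrimidine genes exceed.

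**Figure D2:**
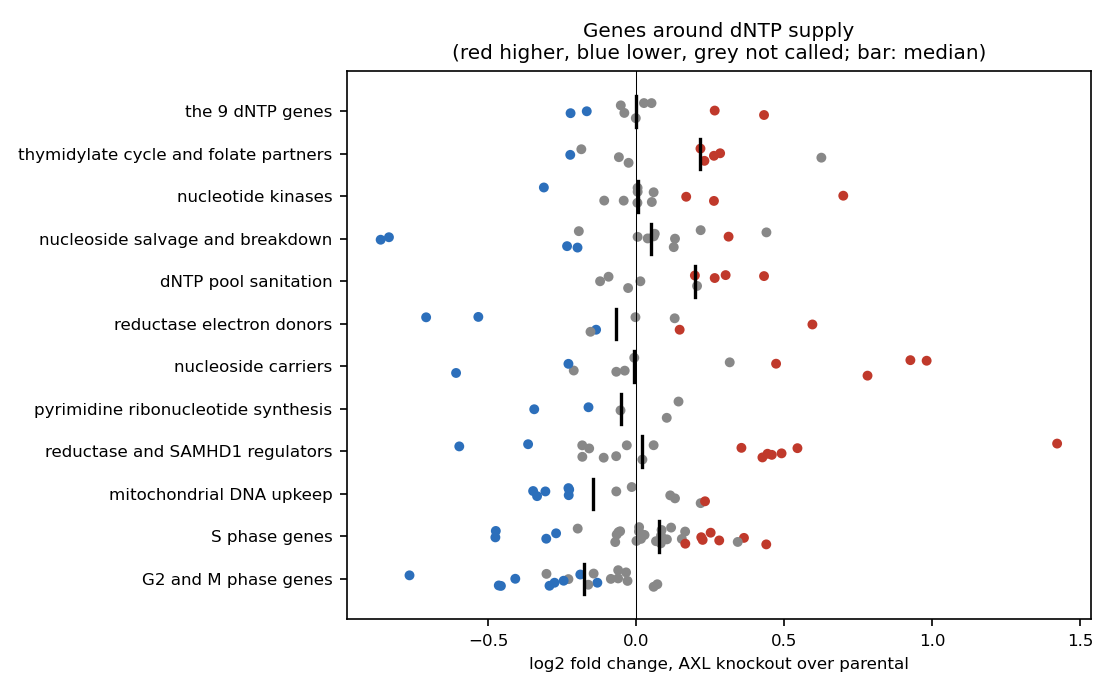
Log2 fold change of knockout over parental (horizontal axis) for each measured gene of the lists around dNTP supply, 1 row per list, with a bar at the list's median. The 9 dNTP genes lie between -0.22 and 0.43, the salvage genes reach down to -0.86, the regulators reach up to 1.42, and the genes of pyrimidine synthesis lie between -0.34 and 0.14.

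TK1 phosphorylates thymidine in the cytosol and is degraded at mitosis, and DCK phosphorylates deoxycytidine and activates nucleoside drugs such as gemcitabine and cytarabine. TK1 (ENSG00000167900, chr17:78174075-78187233) had 1006 normalized counts in knockout and 1035 in parental cells in the authors' deposited table. This gives a log2 fold change of -0.04 ± 0.07 (SE; authors' DESeq2 Wald test, adjusted p = 0.689), with an interval of -11.1% to 6.33%. DCK (ENSG00000156136, chr4:70992538-71030914) had 297 in knockout and 308 in parental cells, a log2 fold change of -0.05 ± 0.10 (SE; authors' DESeq2 Wald test, adjusted p = 0.742). Its interval spans -15.9% to 10.6%. Neither salvage kinase passed the test.

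Around these kinases the entry, breakdown and export of nucleosides did include called genes. Of 14 measured genes of salvage and breakdown, 1 was higher and 4 lower in the authors' deposited table, with a median log2 fold change of 0.05. UPP1, which splits uridine, had 1536 normalized counts in knockout and 2794 in parental cells, a log2 fold change of -0.86 ± 0.06 (SE). NT5E (CD73), which removes phosphate from extracellular AMP, had 1387 in knockout and 2476 in parental cells, a log2 fold change of -0.84 ± 0.07. The adenosine kinase ADK had a log2 fold change of -0.23 ± 0.06, and UCK1, a uridine and cytidine kinase, one of 0.31 ± 0.10. UPP1 and NT5E had intervals that do not overlap those of TK1 and DCK. The share of the salvage and breakdown list called, 35.7%, was near the 38.0% of all genes.

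Of 11 measured nucleoside carriers, 4 were higher and 2 lower in the authors' deposited table, with a median log2 fold change of -0.01. SLC29A2, an equilibrative nucleoside carrier of the plasma membrane, had 1081 normalized counts in knockout and 629 in parental cells, a log2 fold change of 0.78 ± 0.07 (SE). SLC29A3, of lysosomes, had one of 0.47 ± 0.11. The exporter ABCC4, which moves cyclic nucleotides and nucleotide analogues, had one of 0.98 ± 0.15, and the drug exporter ABCG2 one of -0.61 ± 0.11. SLC29A1, the main equilibrative carrier in many cells and named for that role after its value had been seen, had 1777 normalized counts in knockout and 1826 in parental cells and did not pass the test. Calls made up 54.5% of the carriers, against 38.0% of all genes and 51.7% of those with a mean count of at least 200.

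SAMHD1 is a dNTP triphosphohydrolase that limits retroviral replication in resting myeloid cells and lowers the response to cytarabine. SAMHD1 (ENSG00000101347, chr20:36889773-36951901) had 274 normalized counts in knockout and 228 in parental cells in the authors' deposited table. The log2 fold change was 0.26 ± 0.11 (SE; authors' DESeq2 Wald test, adjusted p = 0.0461), a change of 20.2% with an interval of 3.30% to 39.8%. This was the weakest of the 4 calls.

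DUT and SAMHD1 also belong to the 9 measured genes that sanitise the dNTP pool, of which 4 were higher and none lower in the authors' deposited table, with a median log2 fold change of 0.20. The other two were NUDT5, which hydrolyses ADP-ribose and oxidised guanine nucleotides, at 0.30 ± 0.06 (SE), and DCTPP1, which hydrolyses dCTP and its modified forms, at 0.20 ± 0.06. SAMHD1 is known to be induced by interferon in some cells. Of 15 measured interferon targets 7 were higher and 1 lower, with a median log2 fold change of 0.73. OAS1, which senses double-stranded RNA, had 153 normalized counts in knockout and 18.5 in parental cells, a log2 fold change of 3.05 ± 0.24. OAS3 had one of 1.58 ± 0.15, IFIT2 one of 1.19 ± 0.34 and IFI35 one of 0.71 ± 0.24. The part of the interferon targets in the level of SAMHD1 was not tested. Calls made up 44.4% of the sanitation list and 53.3% of the interferon targets. The share was 38.0% over all genes and 51.7% over those with a mean count of at least 200.

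RRM2B supplies mitochondrial DNA synthesis in resting cells and is set here beside the genes of mitochondrial DNA upkeep. Of 12 measured genes of mitochondrial DNA upkeep, 1 was higher and 6 lower in the authors' deposited table, with a median log2 fold change of -0.15. TFAM, which packages mitochondrial DNA, had a log2 fold change of -0.23 ± 0.06 (SE), the helicase TWNK one of -0.34 ± 0.09, MPV17 one of -0.31 ± 0.08 and SUCLG1 one of 0.23 ± 0.06. Every one of the 13 mitochondrially encoded protein genes was lower (median log2 fold change -0.73), and their part in these results was not tested. The share of the upkeep list called was 58.3%, against 38.0% of all genes and 51.7% of those with a mean count of at least 200. RRM2B did not pass the test.

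Several of the 9 genes follow the cell cycle, so 33 S phase genes and 20 genes of G2 and mitosis were counted in the authors' deposited table. The S phase genes had a median log2 fold change of 0.08, with 7 higher and 4 lower. PCNA, the sliding clamp of DNA polymerase, was at 0.44 ± 0.05 (SE) and CENPU at 0.36 ± 0.09. SLBP, the histone messenger binding protein, was at -0.48 ± 0.05 and CLSPN, a mediator of the replication checkpoint, at -0.47 ± 0.10. UNG, which removes uracil from DNA and is named for that role after its value had been seen, was at 0.25 ± 0.06 and was called higher, as DUT was. None of the genes of G2 and mitosis was higher and 9 of them were lower. The median log2 fold change of this list was -0.18. Calls made up 33.3% of the S phase genes and 45.0% of the genes of G2 and mitosis. Both shares were below the 51.7% of genes with a mean count of at least 200, and 38.0% of all genes were called. All 20 genes of G2 and mitosis exceed that mean. Over all genes, 18.5% were lower and 19.5% higher. MKI67 had 2843 normalized counts in knockout and 4834 in parental cells, a log2 fold change of -0.77 ± 0.06, with CENPE at -0.46 ± 0.10, BUB1 at -0.41 ± 0.09 and CDC20 at -0.29 ± 0.07. In bulk RNA, fewer cells in a phase and less RNA per cell cannot be told apart, and the part of these genes in the levels of the 9 genes was not tested.

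The 64 measured genes of the nucleotide lists other than these 9 gave 15 higher and 13 lower, 43.8% called, with a median log2 fold change of 0.00 in the authors' deposited table. This share compares with 38.0% of all genes and 51.7% of those with a mean count of at least 200. As among the 9 genes, both directions were about equally frequent. Each of the 9 genes was also set beside genes with a mean count within 1.25-fold of its own. RRM1 had a larger absolute change than 49.3% of 1042 such genes, DCTD than 59.4% of 1307 and SAMHD1 than 57.5% of 1367. RRM2B had a larger one than 0.696% of 1293, RRM2 than 8.91% of 774, TK1 than 12.5% of 1351, DCK than 14.1% of 1408 and TYMS than 15.9% of 1373. The called genes other than DUT thus had changes of ordinary size for their counts, and the rest had small ones.

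The standard errors show how small a change could have been seen. They lay between 0.05 for RRM2 and 0.11 for RRM2B and SAMHD1 in the authors' deposited table, from 1.55 to 2.10 times what counting error alone would give at these depths. The spread between libraries that they imply was a coefficient of variation of 4.10% for RRM2 to 7.83% for SAMHD1. Genes with a mean count within 1.25-fold of RRM2's had a median of 4.49%, and those near SAMHD1's one of 7.62%. These figures come from the standard errors alone, and the spread of each gene between libraries was not measured. The less counted genes RRM2B, DCK and SAMHD1 had the widest intervals.

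**Figure D3:**
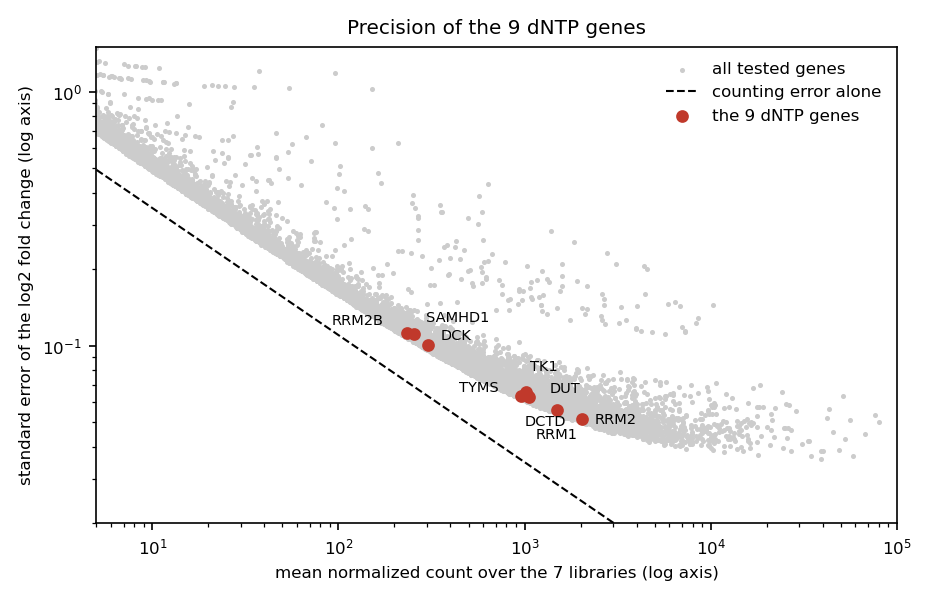
Standard error of the log2 fold change (log axis) against the mean normalized count over the 7 libraries (log axis), for all tested genes (grey) and the 9 dNTP genes (red), with the standard error of counting alone as a dashed line. The 9 genes lie in the lower part of the cloud of genes, above the counting line.

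Genes that share their place with a member could share reads with it, since the use of strand in counting is not given in the sources used here. Of 7 annotated overlapping genes, 5 had a row in the authors' deposited table, and none of the 13 annotated pseudogene copies did. ENOSF1 overlaps TYMS by 3255 bases on the opposite strand and had 389 normalized counts in knockout and 382 in parental cells. TYMSOS, a further transcript there, had 15.1 in knockout and 12.2 in parental cells. MOB1B, a Hippo pathway adaptor, overlaps DCK by 29912 bases on the same strand and was lower, at 159 in knockout and 199 in parental cells (log2 fold change -0.33 ± 0.13 (SE); authors' DESeq2 Wald test, adjusted p = 0.0409). AC007240.1 overlaps RRM2 and had 7.33 in knockout and 6.45 in parental cells. AC023355.1 overlaps DUT and had 1.77 in knockout and 3.90 in parental cells. The transcripts at RRM2 and DUT had few counts beside those of RRM2 and DUT. MOB1B and ENOSF1 were better counted, and the values of DCK and TYMS are uncertain to the extent that reads were split with them.

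Clones can differ in DNA copy number, so the 5 nearest genes with a mean count of at least 50 on each side of every member were counted, 7 in all for TYMS, which lies near a chromosome end. Of the 10 around DUT, 1 was higher and 2 lower in the authors' deposited table, with a median log2 fold change of -0.06. Around SAMHD1, 5 of 10 were higher and none lower, with a median of 0.12, among them RBL1, a relative of the retinoblastoma protein, at 0.60 and named after its value had been seen. The neighbours of RRM1 had a median of 0.02 (3 higher, 2 lower), and those of DCTD one of -0.01 (none higher, 2 lower). Among the lower neighbours of RRM1 was OR51B5, with a mean count of 151 and a log2 fold change of -10.2 ± 1.03 (SE). OR51B5 was named after its value had been seen. The neighbours of RRM2 had a median of 0.19 (6 higher, 1 lower) and those of TK1 one of 0.21 (5 higher, 1 lower), while none of the 7 around TYMS was called. For RRM2B the median was 0.13 (4 higher, 3 lower) and for DCK it was -0.17 (1 higher, 3 lower). Among the 4 called genes, SAMHD1 had the most neighbours called in its own direction. RRM2 and TK1, which were not called, had at least as many neighbours higher. The 5 of 10 called around SAMHD1 were all higher, while 19.5% of all genes, with no limit on the mean count, were called higher. The 51.7% called among genes with a mean count of at least 200 covers both directions. It is not a like comparison for these neighbours, whose limit was a mean of 50. Whether copy number differs at SAMHD1 was not tested.

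**Figure D4:**
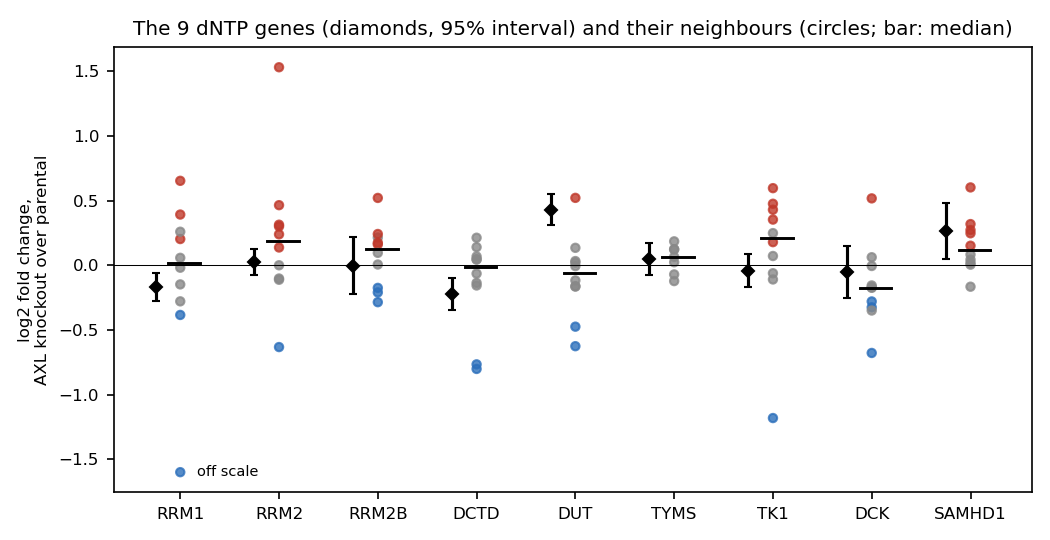
Log2 fold change of knockout over parental for each of the 9 genes (diamonds, with the 95% interval) and its nearest neighbours of mean count at least 50 (circles, red higher, blue lower, grey not called), with a bar at their median. DUT, at 0.43, stands above the median of its neighbours of -0.06. The neighbour OR51B5 of RRM1, at -10.2, is off the scale. Called higher were 5 of the 10 neighbours of SAMHD1, 6 of those of RRM2 and 5 of those of TK1.

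Under 7 other settings on the authors' deposited table, DUT kept its call in 6, RRM1 and DCTD in 4 each and SAMHD1 in 2. The remaining 5 genes were called in none of these 7. A further setting, under which no gene passed, is described in the last section. A threshold of 0.01 ended the call of SAMHD1, with 30.0% of all genes called. A t distribution with 5 degrees of freedom kept DUT alone (adjusted p = 0.0111 over all genes of the authors' DESeq2 Wald statistic), with 21.0% of all genes called. Testing whether the change exceeds 0.25 on the log2 scale also kept DUT alone, with 15.5% called. Centring on the ribosomal protein genes ended the call of SAMHD1, whose log2 fold change was then 0.22, with 38.9% called. Centring on all genes kept all 4 calls, with 37.9% called, as did adjusting over genes with a mean of at least 20, with 48.1% called. A minimum of 2-fold ended all 4 calls, with 9.08% of all genes called.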

How the data were processed

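Bulk MARS-seq, which tags messenger RNA near its 3′ end, was done on 4 AXL knockout libraries and 3 parental libraries. Mapping to the human genome is stated per the labels' protocols, and per the submitters' processing notes the comparison was made with DESeq2. Aligner, build, annotation and use of strand: not given in the sources used here. What the authors deposited is, per the file headers, a signal per gene (the mean normalized count over libraries), a log2 fold change and its standard error, a score (the Wald statistic), a p-value and an adjusted p-value. In the deposited table, adjustment by Benjamini and Hochberg ran over 16522 of 16527 rows, and 5 rows have no test. No values per library were analysed here. The direction of the comparison was read from the 68 rows with a mean under 0.6, all sums of whole reads over 7 steps (tolerance 1e-10), of which 4 go with positive and 3 with negative fold changes, so a positive fold change means higher in knockout cells. AXL has a negative one. Group levels follow from a gene's mean and its fold change, weighted by 4 and 3 libraries. A run on simulated data checked only the arithmetic of this step, since the simulated fold changes were themselves ratios of group means. How far the authors' fitted fold changes depart from such ratios was not tested. Intervals (95%) use the normal distribution and the authors' standard errors.

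The 9 genes and the other 17 lists were chosen with earlier results of these data known. Named are all 9 genes, AXL, overlapping genes with a row and, from each other list, up to 4 genes with the smallest p that pass an adjusted p of 0.05 and have a mean count of at least 20, beside exceptions stated as such. Some genes and lists that this rule took are not reported here. Symbols were matched for 16428 identifiers, and positions are those of GENCODE 29. Python 3.11.15 with pandas 2.3.3, NumPy 2.4.6, SciPy 1.17.1 and matplotlib 3.10.9 was used. Since 2 clones gave the 4 knockout libraries, the p-values cover only how these libraries vary, which may be technical, and what arose in 1 founding cell cannot be told apart from the knockout. The design text and the labels name the clones differently. Of the alternatives, 8 were run, 1 of which called no gene and is set aside.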

Additional observations from a re-analysis of the deposited data

How the results depend on the processing

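Of the 9 genes, the authors' deposited table called 4 and, over all genes, 6281. A t distribution with 5 degrees of freedom left 1 of the 9 genes (DUT) and 3476 of all genes. Testing whether the change exceeds 0.25 on the log2 scale left 1 (DUT) and 2561, and a minimum of 2-fold left 0 and 1501. A setting that only enlarged the authors' DESeq2 standard errors and lowered the degrees of freedom, as if each knockout clone were 1 sample, gave 0 and 0. No gene passed it, with a smallest adjusted p of 0.0676 (t distribution with 3 degrees of freedom on the authors' DESeq2 Wald statistic). DUT had an adjusted p of 0.116 in this test. At an unadjusted p under 0.05 were 1 of the 9 genes and 3696 of all genes. This setting is set aside in the counts below, since it called no gene and the spread between clones was not measured. The threshold of 0.01, the filter on the mean count and both centrings kept both counts within 1.5 times. No called fold change changed sign. Of those not called, RRM2B changed to 0.0128 on the log2 scale when centred on all genes and RRM2 to -0.0159 when centred on the ribosomal protein genes. Over the 17 lists and the 7 alternatives other than the one set aside, 78 of 119 counts stayed within 1.5 times, 41 were lower and 0 higher. No paired analysis was possible because the table holds no values per library. For that reason leaving out each library, the replicate block and the edgeR fit were not run, and no single library could be weighed. Depth limits RRM2B, DCK and SAMHD1 most.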
